A study of Mus musculus with 18 samples.

Results

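Cytosolic DNA sensing through cGAS and STING was followed through 6 genes of the 47643 in the deposited count table. They were chosen by name: the sensor Cgas (also Mb21d1), the adaptor Tmem173 (STING, also Sting1), the kinases Tbk1 and Ikbke, and the nucleic acid clearing enzymes Trex1 and Samhd1. All 6 were found by Ensembl identifier, and all 6 passed the filter on low counts that kept 14309 genes.

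The libraries came from MPC3, a mouse prostate cancer cell line, and fall into 3 groups of 6: a control labelled plko, and 1 group for each of the hairpins shRNF185.1 and shRNF185.3, which were made to lower Rnf185. Polyadenylated RNA was read in strand-specific libraries as single reads of 75 bases. Libraries 1 and 2 of each group were labelled batch 1, libraries 3 and 4 batch 2, and libraries 5 and 6 batch 3. Nothing in the labels says whether a hairpin line was 1 clone or a pool, or whether libraries of a group were separate cultures. The p-values therefore measure only the spread between these libraries, which may be technical. Per the labels, the deposited counts were already adjusted for batch by ComBat-Seq. That spread and the values by batch below are thus what the adjustment left, and the main fit made no allowance for it. For each of the 6 genes the adjusted batches had nearly the same mean log2 CPM over all groups together. A low control pair in a batch therefore goes with high hairpin libraries there, and the reverse, and these are not separate observations.

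The sensor cGAS binds double-stranded DNA in the cytosol and makes the second messenger cGAMP, which binds STING on the endoplasmic reticulum. STING then moves towards the Golgi and recruits TBK1 and its relative IKKε, the product of Ikbke, which phosphorylate the transcription factor IRF3 and start transcription of type I interferon and chemokine genes. TREX1 degrades DNA in the cytosol and SAMHD1 breaks down deoxynucleotides, and loss of either lets nucleic acids trigger the response. RNF185, the ligase lowered here, sits in the endoplasmic reticulum membrane and has been reported to attach ubiquitin to cGAS, a change of the protein that RNA does not show.

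The knockdown was present in every hairpin library. Rnf185 averaged 35.9 ± 1.96 CPM in control (counts scaled to library size; SD, n = 6). It averaged 5.81 ± 0.582 under shRNF185.1 and 5.80 ± 0.546 under shRNF185.3, a log2 change of -2.63 for each. Library totals ran from 22027395 to 43379662 adjusted counts, with group means of 31338882 in control, 26988335 under shRNF185.1 and 26336463 under shRNF185.3. Of 8 prostate epithelial markers, 5 were measured above 1 CPM (Cdh1, Krt8, Krt18, Krt14 and Trp63), while Epcam and Krt5 stayed under 1 CPM and Pbsn, a marker of secretory prostate cells, was at 0 in every library. The summed epithelial level was 1443 to 1778 CPM in control, 899 to 1217 with shRNF185.1 and 964 to 1065 with shRNF185.3. The members did not move one way: for the mean of both hairpins Cdh1, Krt18, Krt8 and Krt14 were called lower (log2 changes of -2.02, -1.12, -0.52 and -0.46) and Trp63 was called higher (0.70). Of 5 fibroblast markers, 3 were above 1 CPM (Pdgfra, Pdgfrb and Dcn), and their list summed to 248 to 284, 292 to 307 and 359 to 402 CPM in the same order. Here too the members moved apart: for the mean Pdgfra and Pdgfrb were called higher (0.23 and 0.47) and Dcn was called lower (-1.30). No lymphocyte or endothelial marker reached 1 CPM in any library, Cd3e, Cd3g and Nkg7 were at 0, and of 9 macrophage and dendritic cell markers only Cd68 and Cd14 did. Members of the epithelial and fibroblast lists thus changed with the groups in both directions, and their part in the results below was not tested.

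Positions are given on GRCm38, and all 6 genes lie on the minus strand. Cgas spans chr9:78430526-78443237. Tbk1 spans chr10:121546455-121586787 and Ikbke spans chr1:131254343-131279606. Samhd1 spans chr2:157097533-157135265. Trex1, at chr9:109057933-109059734, is a short gene whose 1147 exonic bases all lie within exons of read-through transcripts of its upstream neighbour Atrip on the same strand. Of the 1072 windows of 75 bases in Trex1 transcripts, 93.4% also occur in Atrip transcripts, so most reads of the length used here fit both genes and the counting software had to divide them. The share of windows found in another gene was 1.5% for Tbk1, 0.934% for Samhd1 and 0 for Cgas, Tmem173 and Ikbke.

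The RefSeq promoter table (GRCm38.p6) held windows from 250 bases before to 50 bases after a start site for 5 of the 6 genes, 6 windows in all. They were searched on both strands for GAAA followed by any 2 bases and GAAA again, the core of the ISRE element bound by IRF factors, and for TTCNNNGAA, the core of the GAS element. The ISRE core was in none of the 6 windows and in 3.44% of the 32851 promoters of the table. Tmem173 had no window. Of the Trex1 windows, chr9:109059202-109059501 lay within the annotated gene and chr9:109059674-109059973 partly within it. The GAS core was in the Samhd1 window alone, at position -235 from its start site, and in 8.30% of all promoters. The following sequences, 5′ to 3′ on the minus strand, are the stretches of these windows that lie before the annotated gene. They are shown for the kinase genes because both were called different in a comparison below, and for Samhd1 because it holds the match, in capitals.
Tbk1, chr10:121586795-121587044: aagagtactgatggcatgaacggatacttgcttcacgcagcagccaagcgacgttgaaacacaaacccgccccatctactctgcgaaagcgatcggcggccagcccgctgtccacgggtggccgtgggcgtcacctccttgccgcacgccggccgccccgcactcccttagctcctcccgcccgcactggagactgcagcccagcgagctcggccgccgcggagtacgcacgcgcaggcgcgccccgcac
Ikbke, chr1:131279607-131279813: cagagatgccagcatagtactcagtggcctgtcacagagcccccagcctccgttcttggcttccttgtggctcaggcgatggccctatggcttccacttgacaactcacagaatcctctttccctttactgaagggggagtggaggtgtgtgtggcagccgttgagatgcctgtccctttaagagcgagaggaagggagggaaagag
Samhd1, chr2:157135266-157135346: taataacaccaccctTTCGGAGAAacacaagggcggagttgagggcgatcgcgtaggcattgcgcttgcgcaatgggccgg
A match of letters is not a site shown to be bound, and its absence says only that these letters are not in these windows.

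Levels per kilobase were divided by the merged exons of all annotated transcripts of a gene. These came to 9150 bases for Samhd1, 9018 for Ikbke, 4126 for Cgas, 3910 for Tbk1, 2741 for Tmem173 and 1147 for Trex1. Which transcripts the cells used was not measured, so the order below rests on this length. By this measure the control level was highest for the adaptor and its main kinase. Tmem173 averaged 15.3 ± 1.69 CPM per kilobase and Tbk1 14.5 ± 0.506 (SD, n = 6), and their ranges overlapped. Samhd1 followed at 10.002 ± 1.02 and Trex1 at 5.55 ± 1.54, each clear of its neighbours. Cgas at 1.51 ± 0.274 and Ikbke at 1.28 ± 0.274 were lowest and overlapped. Before division by length they averaged 6.23 and 11.5 CPM in control, so their nearness rests on the lengths used. By both measures the sensor RNA was among the scarcest of the 6. With either hairpin Trex1 reached 10.4 ± 1.68 and 10.5 ± 1.81 CPM per kilobase, overlapping Samhd1 at 9.83 ± 0.574 and 11.2 ± 0.819, and Ikbke stood nominally above Cgas with overlapping ranges. Per length Tmem173 and Tbk1 stayed first and second in every group, and with shRNF185.3 their ranges no longer overlapped. In CPM without that division Samhd1 was highest in every group, at 91.5, 90.0 and 102 in control, shRNF185.1 and shRNF185.3. In the same order Tbk1 averaged 56.6, 61.3 and 53.9 CPM and Tmem173 averaged 42.1, 46.9 and 45.2 CPM. The Trex1 values also rest on how reads were divided with Atrip.

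**Figure D1:**
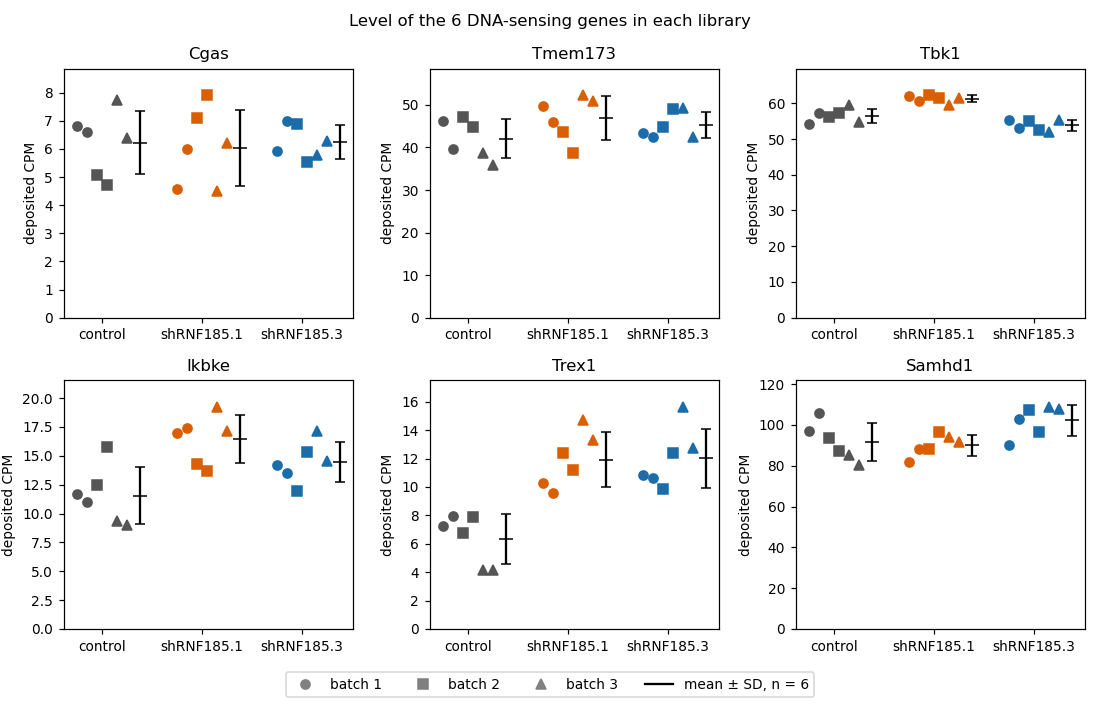
Deposited CPM (vertical axes, from 0) of each gene in the 18 libraries by group, with batch as symbol and the group mean ± SD (n = 6) beside the points. For Trex1 all 12 hairpin libraries lie above the highest control library at 7.97 CPM, and for Tbk1 the shRNF185.1 libraries lie above those of shRNF185.3.

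Against control, 3 of the 6 genes were called higher under shRNF185.1 (Tbk1, Ikbke and Trex1), at an adjusted p under 0.05 in edgeR's quasi-likelihood test, and none lower. Of all genes tested, 28.9% were called in that comparison, 14.6% higher and 14.3% lower. Under shRNF185.3 1 of the 6 was called higher (Trex1) and none lower, beside 27.3% of all genes called, 14.2% higher and 13.1% lower. For the mean of both hairpins 2 of 6 were called higher (Ikbke and Trex1) and none lower, beside 32.9% of all genes, 16.1% higher and 16.8% lower. Trex1 was the 1 gene of the 6 called higher with each hairpin, as were 8.99% of all genes. The counts for shRNF185.3 and for the mean are near these shares and are no result about the set. The 3 of 6 under shRNF185.1 were not tested against the share of 28.9%. The calls of Tbk1 and Ikbke among them were each lost without batch 1, so that count is no result about the set either. The median log2 change over the 6 was 0.13 under shRNF185.1 and 0.14 under shRNF185.3, beside -0.017 and -0.019 over all genes. Both hairpins were compared with the same 6 control libraries. In these bulk libraries more RNA per cell and more cells that express a gene cannot be told apart.

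Cgas, the DNA sensor, was present at a low level that did not pass the test in any comparison. Its level was 4.72, 6.51 and 7.74 CPM in control (lowest, median and highest), 4.52, 6.10 and 7.91 under shRNF185.1, and 5.54, 6.10 and 7.01 under shRNF185.3. The 3 groups overlapped throughout, on 117 to 218 counts per library. The log2 change was -0.04 (SE 0.14, 95% interval -0.34 to 0.25, adjusted p = 0.856) with shRNF185.1 and 0.0057 (SE 0.14, interval -0.29 to 0.30, adjusted p = 0.982) with shRNF185.3. As folds the intervals run from 0.792 to 1.19 and from 0.819 to 1.23, so equal levels were not shown. Within batches the change turned sign: with shRNF185.1 it was -0.35, 0.60 and -0.41 in batches 1, 2 and 3, as differences of mean log2 CPM between 2 libraries each, and with shRNF185.3 it was -0.05, 0.33 and -0.22. Control libraries 3 and 4, of batch 2, held the lowest control levels at 5.08 and 4.72 CPM. Without batch 2 the change with shRNF185.1 was -0.37 with an adjusted p of 0.0323.

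Tmem173, the gene for STING at chr18:35733679-35740554, stood nominally higher with both hairpins and passed the test with neither. Control libraries held 35.9, 42.3 and 47.1 CPM (lowest, median and highest), shRNF185.1 libraries 38.7, 47.9 and 52.3, and shRNF185.3 libraries 42.5, 44.1 and 49.3. Of the libraries with shRNF185.1, 3 lay above the highest control, and 2 of those with shRNF185.3 did. For shRNF185.1 the log2 change was 0.16 (SE 0.08, interval -0.01 to 0.32, adjusted p = 0.156), and for shRNF185.3 it was 0.11 (SE 0.08, interval -0.06 to 0.27, adjusted p = 0.338). The upper bounds of these intervals correspond to 1.25-fold and 1.21-fold. By batch the difference was 0.16, -0.17 and 0.47 under shRNF185.1 and 0.01, 0.03 and 0.30 under shRNF185.3. Control libraries 5 and 6 of batch 3 were the lowest of the group, at 38.6 and 35.9 CPM. Leaving out batch 2 brought Tmem173 past the threshold with shRNF185.1 (0.31, adjusted p = 0.00775) and for the mean of both hairpins (0.23, adjusted p = 0.0179), and leaving out shRNF185.1 library 4 alone did so with that hairpin (0.21, adjusted p = 0.0435).

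Tbk1, the kinase that phosphorylates STING and IRF3, differed between the hairpins. Control libraries held 54.2, 56.7 and 59.6 CPM (lowest, median and highest), those with shRNF185.1 held 59.6, 61.5 and 62.3, and those with shRNF185.3 held 52.0, 54.1 and 55.5. The spread within a group was narrow, with a coefficient of variation of 1.63% to 3.50%, and 5 of 6 libraries with shRNF185.1 lay above the highest control. Against control the log2 change was 0.11 (SE 0.03, adjusted p = 0.0156) with shRNF185.1, an increase of 8.26%, and -0.07 (SE 0.03, interval -0.14 to 0.0044, adjusted p = 0.156) with shRNF185.3. Between the hairpins every library with shRNF185.3 lay below every library with shRNF185.1, and the log2 difference was -0.18 (SE 0.03, adjusted p = 0.00111). In that comparison 1 of the 6 genes was called, Tbk1, beside 14.7% of all genes called and 6.94% called lower, and 3.79% of all genes had groups that did not overlap in that direction. The difference from control kept its sign in each batch, at 0.14, 0.12 and 0.08 under shRNF185.1 and -0.03, -0.08 and -0.09 under shRNF185.3. The call with shRNF185.1 was lost without batch 1 (0.10, adjusted p = 0.206), without batch 2 (0.11, adjusted p = 0.0913) and without the filter on low counts (adjusted p = 0.0695), and the call between the hairpins was lost without batch 1 (-0.19, adjusted p = 0.0526).

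Ikbke, which encodes the inducible relative of TBK1, rose with shRNF185.1. Control libraries held 8.97, 11.3 and 15.8 CPM (lowest, median and highest), shRNF185.1 libraries 13.6, 17.1 and 19.3, and shRNF185.3 libraries 11.9, 14.4 and 17.1. Control library 4, at 15.8 CPM, stood above the next control at 12.4 CPM, and its level overlapped both hairpin groups. The log2 change was 0.51 (SE 0.12, interval 0.25 to 0.77, adjusted p = 0.00424) with shRNF185.1, an increase of 42.3%, and 0.42 (SE 0.11, adjusted p = 0.00645) for the mean of both hairpins. With shRNF185.3 it was 0.32 (SE 0.12, interval 0.06 to 0.59, adjusted p = 0.0606). The hairpins were not shown to differ, with -0.18 (SE 0.12, interval -0.44 to 0.07, adjusted p = 0.401) for shRNF185.3 against shRNF185.1.

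The Ikbke change was uneven over batches. In batch 2 the groups were level, with a difference of -0.01 for shRNF185.1 and -0.05 for shRNF185.3, while batch 1 gave 0.60 and 0.29 and batch 3 gave 0.98 and 0.78. A test of whether the change with both hairpins differed between batches, added after the data were seen, gave an adjusted p of 0.00917 for Ikbke, beside 14.2% of all genes called by the same test. The call with shRNF185.1 was lost without batch 3 (0.29, adjusted p = 0.126), without batch 1 (0.46, adjusted p = 0.111), and when the pair of libraries in each group and batch was summed (0.51, adjusted p = 0.0584). The call for the mean was lost in the same settings, with 0.20, 0.40 and 0.42 (adjusted p = 0.221, 0.103 and 0.0693). For shRNF185.3 a call was gained without batch 2 (0.53, adjusted p = 0.00209), without control library 4 (0.44, adjusted p = 0.00597) and without shRNF185.3 library 3 (0.37, adjusted p = 0.0382).

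**Figure D2:**
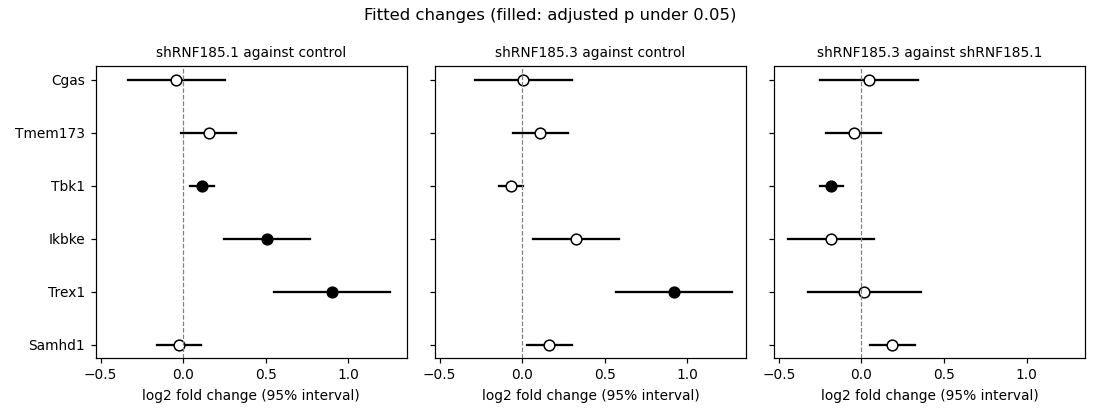
Fitted log2 fold changes (points) with 95% intervals (bars) of the 6 genes in the 3 comparisons, filled where the adjusted p was under 0.05. Trex1 lies at 0.90 and 0.92 against control and at 0.02 between the hairpins, and Tbk1 is the one gene filled between the hairpins.

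Trex1, the exonuclease that removes cytosolic DNA, rose with both hairpins. Control libraries held 4.16, 6.997 and 7.97 CPM (lowest, median and highest), those with shRNF185.1 held 9.61, 11.8 and 14.7, and those with shRNF185.3 held 9.89, 11.6 and 15.7. No library of either hairpin reached down to the highest control. Of all genes, 7.02% were separated upward in this way under shRNF185.1, 7.60% under shRNF185.3 and 4.22% in the 12 hairpin libraries together. The log2 change was 0.90 (SE 0.17, interval 0.55 to 1.25, adjusted p = 0.000463) and 0.92 (SE 0.17, interval 0.57 to 1.27, adjusted p = 0.000417), or 1.87-fold and 1.89-fold. Larger changes in size were found for 5.17% of genes under shRNF185.1 and 5.14% under shRNF185.3. The hairpins gave nearly one value, with a log2 difference of 0.02 (SE 0.16, interval -0.33 to 0.36, adjusted p = 0.971).

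The size of the Trex1 change varied by batch. With shRNF185.1 it was 0.38, 0.68 and 1.73 in batches 1, 2 and 3, and with shRNF185.3 it was 0.50, 0.60 and 1.75, and the added test of a difference between batches gave an adjusted p of 0.00120. In batch 3 the control libraries were the lowest of all, at 4.16 and 4.17 CPM, and the hairpin libraries were high, at 12.7 to 15.7 CPM. With batch means left nearly level by the adjustment, these are not separate observations. Without batch 3 the change was 0.54 with shRNF185.1 (adjusted p = 0.0240) and 0.55 with shRNF185.3 (adjusted p = 0.0238). Trex1 was called in all 31 alternatives run for each hairpin, all of which kept the deposited division of reads with Atrip.

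Because most of the Trex1 sequence also lies in Atrip, Atrip was set beside it. Atrip, whose product brings the ATR kinase to damaged DNA, averaged 13.9 ± 0.876 CPM in control (SD, n = 6), 13.4 ± 1.21 under shRNF185.1 and 12.8 ± 0.996 under shRNF185.3, with log2 changes of -0.05 and -0.12 that did not pass the test (adjusted p = 0.592 and 0.205). Trex1 took 31.0% of the counts of both genes in control, 46.9% with shRNF185.1 and 48.3% with shRNF185.3. Summed into 1 row, an alternative added after the data were seen, both genes together rose by 0.32 under shRNF185.1 (SE 0.07, adjusted p = 0.00286) and by 0.29 under shRNF185.3 (SE 0.07, adjusted p = 0.00603). The summed row holds every shared read whichever gene it was given to, so the size of the Trex1 change rests on how those reads were divided, while the rise of the pair does not.

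Samhd1, which lowers the deoxynucleotide supply and takes part in clearing nucleic acids, did not pass the test in any of the comparisons. Control libraries held 80.2, 90.5 and 106 CPM (lowest, median and highest), those with shRNF185.1 held 81.6, 89.9 and 96.3, and those with shRNF185.3 held 90.3, 105 and 109. Of the shRNF185.3 libraries 3 lay above the highest control, and none with shRNF185.1 did. The log2 change was -0.03 (SE 0.06, interval -0.16 to 0.11, adjusted p = 0.809) with shRNF185.1 and 0.16 (SE 0.06, interval 0.03 to 0.30, adjusted p = 0.0692) with shRNF185.3, and 0.19 (SE 0.06, interval 0.05 to 0.32, adjusted p = 0.0593) between them. By batch it was -0.26, 0.02 and 0.17 under shRNF185.1 and -0.07, 0.17 and 0.39 under shRNF185.3, and the added test between batches gave an adjusted p of 0.0314. The value with shRNF185.3 lay close to the threshold: it passed with DESeq2 (0.17, adjusted p = 0.0496), with scaling by library size alone (0.18, adjusted p just under 0.05), without batch 1 (0.28, adjusted p = 0.0105), without control library 2 (0.21, adjusted p = 0.0185) and without shRNF185.3 library 1 (0.19, adjusted p = 0.0337).

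**Figure D3:**
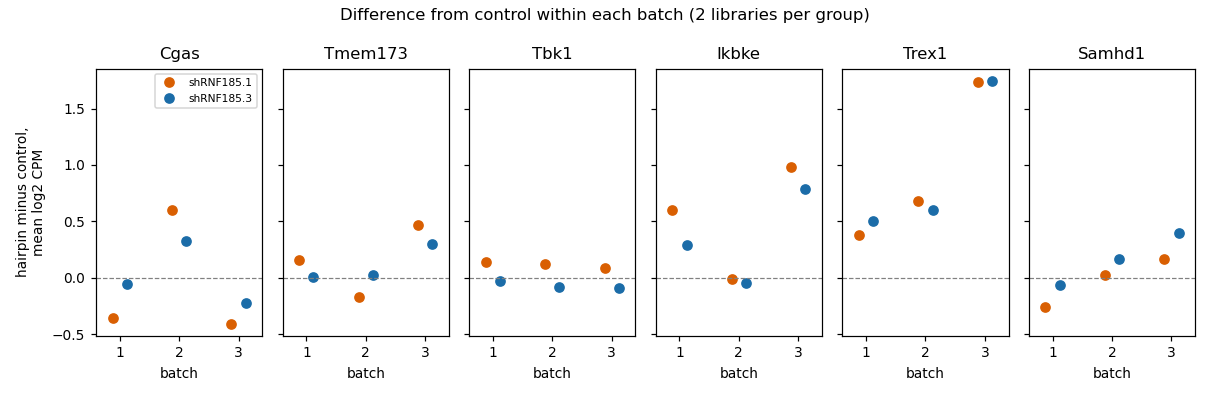
Difference of mean log2 CPM between hairpin and control (vertical axis) within each labelled batch, from 2 libraries per group, for the 6 genes. Trex1 reaches 1.73 and 1.75 in batch 3 against 0.38 to 0.68 in batches 1 and 2, Ikbke lies at -0.01 and -0.05 in batch 2, and Tbk1 keeps its sign for each hairpin.

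The groups stood differently by batch for several of the 6 genes, in the same libraries. In batch 3 control, Tmem173, Ikbke, Trex1 and Samhd1 were at their lowest group level, with means of 37.2, 9.16, 4.16 and 82.6 CPM. Over all 18 libraries Ikbke and Trex1 correlated at r = 0.84, Tmem173 and Ikbke at 0.80, and Cgas ran opposite to Tmem173 at -0.67. These correlations describe the libraries, share the group and batch differences, and carry no test.

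Outside the 6, the genes most alike in pattern were taken from 10427 genes with a mean of at least 5 CPM, by Pearson r of log2 CPM over the 18 libraries. For Trex1 they were Unc93b1 (r = 0.96), Psmb10 (0.96) and Lrpap1 (0.95). Unc93b1 brings nucleic acid sensing toll-like receptors to endosomes, and Psmb10 is a subunit of the immunoproteasome. For Ikbke they were App (0.97), Cdc42ep4 (0.96) and Il10rb (0.96), the last a receptor chain for interleukin 10 and interferon lambda. For Tmem173 they were Bphl (0.96), Macrod1 (0.95) and Sqor (0.94), and for Cgas Rpf2 (0.91), Prps1 (0.90) and Gemin2 (0.90). For Tbk1 they were Sacm1l (0.91), Nfe2l2 (0.90) and Tbc1d15 (0.90). Samhd1 had the weakest likenesses, to Spsb1 (0.83), Cox15 (0.82) and Lars2 (0.79). Group differences enter each r, and no p is given.

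The wider pathway was described with 118 genes in 7 lists, of which 103 passed the filter. For the mean of both hairpins 23 were called higher and 20 lower, or 41.7% of those tested beside 32.9% of all genes, and their median log2 change was 0.0079 beside -0.019 over all genes. With shRNF185.1 it was 26 higher and 13 lower, or 37.9% of those tested beside 28.9% of all genes. With shRNF185.3 it was 18 higher and 19 lower, or 35.9% beside 27.3% of all genes. Higher calls outnumbered lower ones with shRNF185.1, beside 14.6% of all genes called higher and 14.3% called lower. The counts were close for shRNF185.3 and for the mean. The lower calls include Rnf185 itself, and no list was tested as a set. The values that follow are log2 changes for the mean of both hairpins. The counts of calls in each list are for the mean too, where 16.1% of all genes were called higher and 16.8% lower. They were not tested against these shares.

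Among 22 other DNA sensors 18 were tested, and 6 were called higher and 3 lower, beside 16.1% and 16.8% of all genes. Zbp1, a sensor of Z-form nucleic acid that can start necroptosis, rose by 2.75 (SE 0.39, adjusted p = 2.36e-05), from a mean of 0.596 CPM in control to 3.72 and 4.39, above every control in 12 of 12 libraries. The interferon-inducible Ifi203 (0.96), Mndal (1.01) and Ifi205 (1.034) also rose. They belong to one family of near-identical neighbours, so the counting could have moved reads among them, and Ifi205 held 3 to 19 counts per library. Xrcc5, which binds DNA ends in repair, fell by 0.28, and the helicases Dhx36 and Dhx9 fell by 0.24 and 0.21.

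Among 16 regulators of cGAS 15 were tested, with 1 called higher and 3 lower, beside 16.1% and 16.8% of all genes. Trim56, a ubiquitin ligase that modifies cGAS and STING, rose by 0.50 (SE 0.07, adjusted p = 3.76e-05). The knockdown target Rnf185 is on this list, and besides it Banf1, which competes with cGAS for nuclear DNA, fell by 0.20 and Hdac3 fell by 0.11. All 23 genes of STING trafficking and regulation were tested, with 7 called higher and 1 lower, beside the same shares of all genes. Scaling by library size alone made that 10 and 1. Usp18, a negative regulator of interferon signalling that also acts on STING, rose by 1.81 (SE 0.38, adjusted p = 0.00124). Nlrc3, which restrains STING, rose by 1.08 (SE 0.09, adjusted p = 4.71e-08), from 1.22 CPM to 2.34 and 2.85. Rhbdf2 and Usp20, which stabilise STING, rose by 0.31 and 0.29, and Tollip fell by 0.17.

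Of 21 kinase adaptors and genes of the IRF3 and NF-κB arm, 19 were tested. Of these 4 were called higher and 6 lower, beside 16.1% and 16.8% of all genes. Irf7, the interferon-induced relative of IRF3, rose by 1.48 (SE 0.41, adjusted p = 0.00961). Tbkbp1, an adaptor of TBK1 and IKKε, rose by 0.79 from 0.754 CPM, Ikbkg by 0.38 and Nfkb1 by 0.15. Dtx4, a ligase that marks TBK1 for degradation, fell by 0.46, while Ddx3x fell by 0.27, Traf6 by 0.24 and Ikbkb, a kinase of the NF-κB arm, by 0.22. Irf7 and Usp18 also belong to the interferon-stimulated genes described below, so they are not separate from that list.

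Among 17 other nucleic acid clearing enzymes 13 were tested, with 1 higher and 3 lower, beside 16.1% and 16.8% of all genes. Adar, which edits double-stranded RNA, rose by 0.31 (SE 0.11, adjusted p = 0.0314). Lsm11 fell by 0.25, Rnaseh2c by 0.21 and Rnaseh1 by 0.16. In the list of cGAMP transport and hydrolysis 11 of 12 were tested, with 1 higher and 4 lower, beside the same shares. Enpp1, the main enzyme that hydrolyses cGAMP outside the cell, fell by 0.93 (SE 0.13, adjusted p = 1.61e-05), from 21.5 CPM to 11.3 and 11.2, below every control in 11 of 12 libraries. Enpp3, a related hydrolase, fell by 0.65, Lrrc8b and Lrrc8c, subunits of volume-regulated channels, fell by 0.74 and 0.21, and the exporter Abcc1 rose by 0.38.

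At the output of the pathway the chemokine genes rose and interferon beta was not detected beyond single counts. Of 7 genes 4 were tested, with 3 called higher, beside 16.1% of all genes. These were Cxcl9 by 1.72 (SE 0.21), Ccl5 by 1.37 (SE 0.20) and Cxcl10 by 1.25 (SE 0.21). Each lay above every control in 12 of 12 libraries, as did 4.22% of all genes. The median over the 4 was 1.31. Ifnb1 had at most 3 counts in any library, and a floor of 3 counts is 0.0692 to 0.136 CPM at these depths, which covers counting error only. A difference in Ifnb1 was therefore not detectable at this depth.

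**Figure D4:**
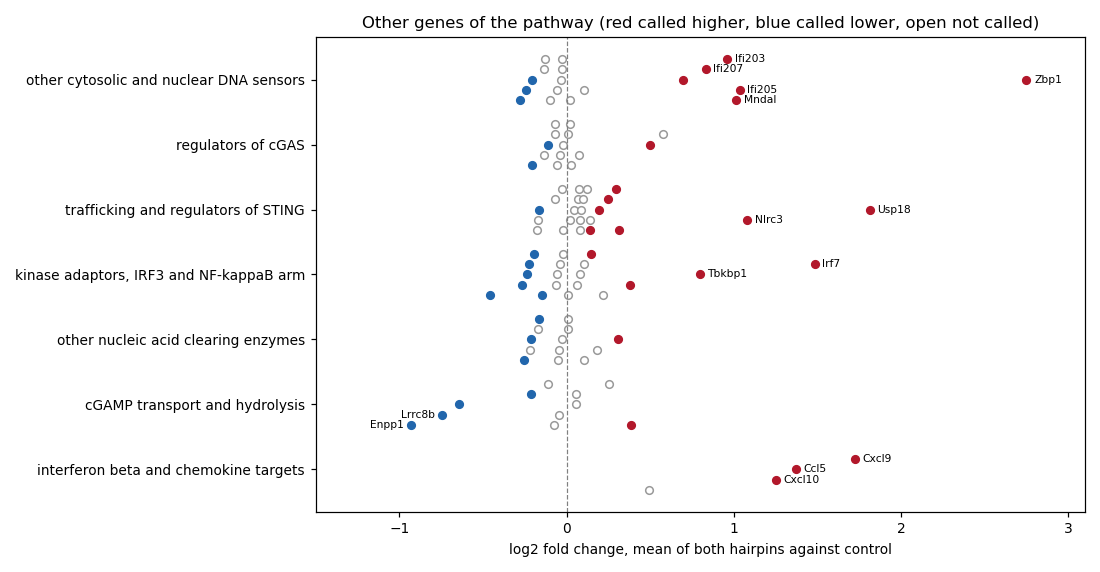
Log2 fold change for the mean of both hairpins (horizontal axis) of each tested gene in the 7 pathway lists, without Rnf185 itself, red where called higher, blue where called lower and open where not called. Zbp1 lies farthest right at 2.75, the 3 called chemokine genes lie between 1.25 and 1.72, and Enpp1 lies farthest left at -0.93.

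Each gene was also set against an interferon-stimulated gene score, the mean log2 CPM of 27 genes that hold none of the 6, given relative to the control mean. The score ran from -1.16 to 0.70 in control, 1.13 to 2.24 under shRNF185.1 and 1.20 to 2.38 under shRNF185.3, so no hairpin library overlapped the controls. The score genes were chosen with earlier results of these data known, so this separation is no independent result. Because the groups form separate clusters, relations were computed within groups of 6 libraries, 18 in all. By exact two-sided permutation test with Benjamini-Hochberg adjustment none had an adjusted p under 0.05, and 5 had an unadjusted Pearson p under 0.05 and 3 an unadjusted Spearman p under 0.05.

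The smallest Pearson p was that of Tmem173 in control, with r = 0.88 and rho = 0.94 (exact permutation p = 0.00278 and 0.0167, adjusted 0.05 and 0.10), and r = 0.92 without the 2 libraries farthest from the median score. With shRNF185.1 its r was 0.89 (exact permutation p = 0.0167, adjusted 0.10), and with shRNF185.3 it was 0.39. Cgas ran the other way with shRNF185.1, with the largest absolute r of the 18, at r = -0.93 and rho = -0.94 (exact permutation p = 0.00694 and 0.0167, adjusted 0.0625 and 0.10), and r = -0.93 without the 2 farthest libraries. The other unadjusted Pearson values under 0.05 were Ikbke with shRNF185.1 (r = 0.84) and Trex1 with shRNF185.3 (r = 0.87), and the latter fell to -0.24 without the 2 farthest libraries, so it rests on them. A batch holds 2 libraries per group, too few for a value within it, and batch and score cannot be told apart here.

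**Figure D5:**
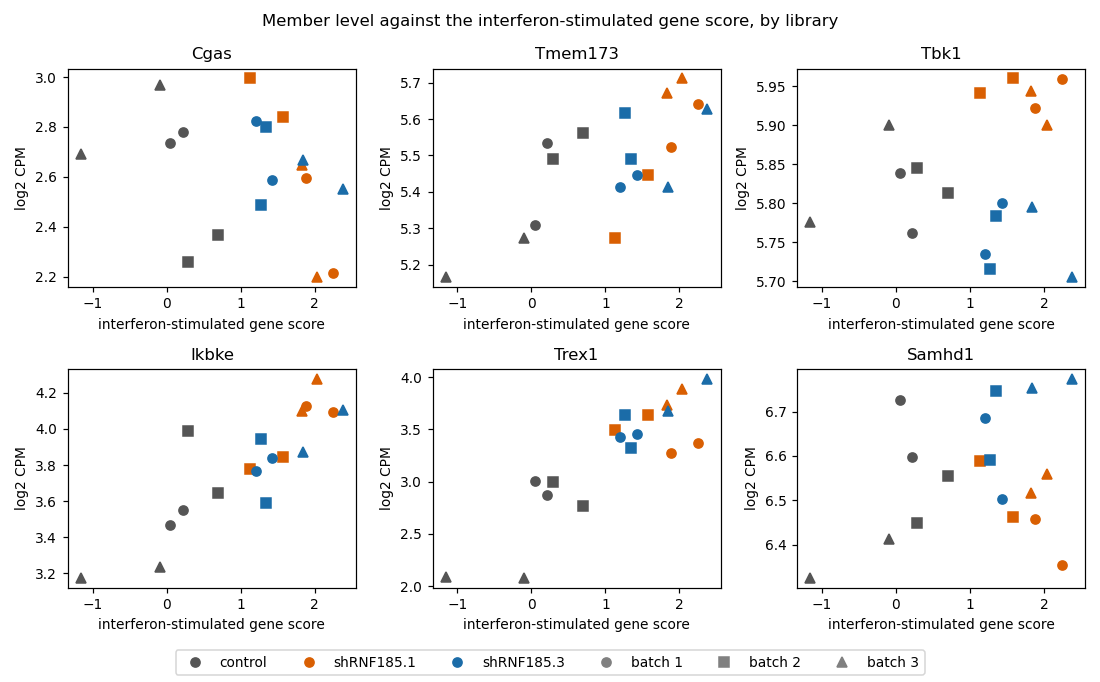
Log2 CPM of each gene (vertical axis) against the interferon-stimulated gene score (horizontal axis, log2 units relative to the control mean) in the 18 libraries, colour for group and symbol for batch. Control libraries lie at scores of -1.16 to 0.70 and hairpin libraries at 1.13 to 2.38, and the batch 3 controls hold the lowest Trex1 and Ikbke levels.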

How the data were processed

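Per the submitters' processing notes, reads were handled with cutadapt 2.3, STAR 2.7.0d and RSEM 1.3.1 on build mm10; the annotation, and whether batch adjustment was told the groups, are not given in the sources used here. The authors deposited expected counts adjusted by ComBat-Seq per the labels (0.466% not whole), rounded here before testing although whole counts had been planned for, and a library-scaled CPM signal whose deposited columns sum to 969986 to 1026394. Totals were 22027395 to 43379662 counts per library.

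Symbols matched 99.1% of identifiers; positions are from GENCODE M21 on GRCm38, matched by identifier. In R 4.3.3 with edgeR 4.0.16, filterByExpr (minimum count 10) kept 14309 genes, TMM scaled the libraries, and a model with 1 mean per group was fitted to all 18. Quasi-likelihood F tests with Benjamini-Hochberg adjustment over all tested genes called genes at an adjusted p under 0.05, and the scripts were tested on simulated data. Log2 CPM used a prior count of 2. Alternatives used DESeq2 1.42.0, limma 3.58.1, other scalings, filters and pseudocounts, a batch covariate, a replicate block, summed libraries, and leaving out each batch and library.

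The 6 genes and all lists were chosen with earlier results of these data known. Named beside them are up to 4 genes called higher and 4 called lower per list for the mean of both hairpins, by size of change, and the 3 genes most alike each member. The epithelial marker counts and sums cover the markers named in the text, and the other members of that list are not reported here.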

Additional observations from a re-analysis of the deposited data

Results flagged for a closer look

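Tbk1 differed between the hairpins themselves, with a log2 difference of -0.18 for shRNF185.3 against shRNF185.1 by edgeR (adjusted p = 0.00111).

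For 3 genes the change with both hairpins differed between the labelled batches by the interaction test added after the data were seen. The change in batch 3 minus that in batch 1 was 1.32 on the log2 scale for Trex1 (adjusted p = 0.00120), 0.44 for Ikbke (adjusted p = 0.00917) and 0.44 for Samhd1 (adjusted p = 0.0314). The p-values are for any difference over all 3 batches. The changes in batches 1, 2 and 3 were 0.44, 0.64 and 1.76 for Trex1, 0.45, -0.04 and 0.89 for Ikbke, and -0.16, 0.10 and 0.28 for Samhd1, so for Ikbke batches 2 and 3 lay farthest apart. Of all genes tested, 14.2% were called by that test. Tmem173 and Cgas lay just over its threshold (adjusted p = 0.0537 and 0.0560), and Tbk1 far over it (adjusted p = 0.888). No library of any of the 6 genes or Rnf185 stood apart from its group in 21 groups of 6 values, where chance would give about 1.05.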

How the results depend on the processing

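Trex1 against control, for each hairpin and for their mean, kept its direction and call in all 31 alternatives each. Among these it lay lowest without batch 3 (0.54, 0.55 and 0.55). All 31 kept the deposited division of reads between Trex1 and Atrip. Outside them, the row of Trex1 and Atrip summed rose by less, at 0.32, 0.29 and 0.31. Numbers in this paragraph are log2 changes unless counts of genes are named, and causes were not tested. Ikbke lost its call with shRNF185.1 and for the mean when libraries of a group and batch were summed (0.51 and 0.42), without batch 1 (0.46 and 0.40) and without batch 3 (0.29 and 0.20), and gained one with shRNF185.3 by DESeq2 (0.33), limma on log2 of CPM + 1 (0.32) and without batch 2 (0.53). Tbk1 lost its call with shRNF185.1 without the filter (0.11), without batch 1 (0.10) and without batch 2 (0.11), and between the hairpins without batch 1 (-0.19). Tmem173 gained a call without batch 2 (0.31 with shRNF185.1, 0.23 for the mean), and its difference between the hairpins turned sign without batch 1 (0.0048) and batch 3 (0.017). Samhd1 gained a call with shRNF185.3 by library size alone (0.18), by DESeq2 (0.17) and without batch 1 (0.28), for the mean without batch 1 (0.19) and between the hairpins by DESeq2 (0.19). It turned sign for the mean without batch 3 (-0.033) and with shRNF185.1 without batch 1 (0.095). Cgas was called only without batch 2, with shRNF185.1 (-0.37), and turned sign with shRNF185.1 without batch 1 (0.10) and batch 3 (0.14). With shRNF185.3 it turned without the filter (-0.0036), with the replicate block (-0.00075) and without batch 2 (-0.14). For the mean it turned with library size alone (0.0023), summed libraries (0.0015), without batch 1 (0.069) and without batch 3 (0.14), and between the hairpins without batch 1 (-0.070) and batch 3 (-0.0089). The difference of Trex1 between the hairpins turned without batch 1 (-0.023) and when summed with Atrip (-0.026).

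Leaving out each library in turn gave ranges, for shRNF185.1, shRNF185.3, the mean and the difference between the hairpins, of -0.13 to 0.031, -0.066 to 0.077, -0.089 to 0.054 and -0.025 to 0.13 for Cgas, and -0.071 to 0.088 for the Trex1 difference. For Tmem173 with shRNF185.1 they gave 0.11 to 0.21, for Ikbke with shRNF185.3 0.26 to 0.44, and for Samhd1 -0.061 to 0.020 with shRNF185.1, 0.13 to 0.21 with shRNF185.3 and 0.16 to 0.22 between the hairpins, where a call was gained without control library 2 (adjusted p = 0.0377), control library 6 (0.0428) or shRNF185.3 library 1 (0.0314). Genes called numbered 4141, 3906, 4701 and 2098 for shRNF185.1, shRNF185.3, the mean and the difference. They fell to 2207, 2120, 2672 and 753 without batch 1, to 2501 and 3106 for shRNF185.3 and the mean without batch 3, and to 1208 for the difference without batch 2. Scaling by library size alone moved called genes in the cGAS regulators with shRNF185.3 from 1 to 2 higher, and in the STING list from 4 to 1 lower with shRNF185.3 and from 2 to 1 higher between the hairpins. Relations with the interferon score turned sign without the 2 farthest libraries for Tmem173 (-0.095), Tbk1 (0.87), Ikbke (-0.13), Trex1 (-0.24) and Samhd1 (-0.48) with shRNF185.3, Tbk1 in control (-0.66) and Samhd1 with shRNF185.1 (0.71), and for Trex1 with shRNF185.1 on log2 of CPM + 1 (-0.040).

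With the replicate block 3811, 3578, 4304 and 1976 genes were called, and no call among the 6 genes changed. Libraries of the same number in other groups had a mean r of -0.014 over 18 pairs, 4 of them over 0.1. Of the libraries, 0 correlated best with their own number. Libraries of the same batch but another number had a mean r of -0.43, and those of other batches 0.11. Levels were centred within each group and the counts were already adjusted for batch, so negative values within a batch are partly built in. Libraries of the same number always share a batch, so these values do not settle whether the numbers pair them. The main fit did not pair them. Trex1 and Cgas had the widest intervals of the 6, which limits what could be called for Cgas. Both held as few as 117 counts in a library, and the part of low counts in that width was not tested.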
